A study of Mus musculus with 4 samples.

Results

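LMO2 peaks that the deposited list placed between genes and far from the transcription start site (TSS) of their nearest gene were described here. A peak was taken when the deposited list annotated it as intergenic, placed it more than 50 kb from the TSS of its nearest gene, and named no repeat element in its detailed annotation. These 3 conditions gave 199 of the 1585 listed peaks (12.6%), or 25.9% of the 769 peaks annotated as intergenic. A further 58 intergenic peaks beyond 50 kb carried the name of a repeat element and were left out. Of 207 bp windows tiled over the genome and mostly outside soft-masked repeats, 33.0% were far intergenic by a like rule on RefSeq transcripts. The cells were pro-B(+) cells, a line derived from fetal liver progenitors that lack Ebf1, the transcription factor needed for B-lineage commitment. They carried the strain label C57BL6/J and grew on OP9 stromal cells with SCF, IL-7 and Flt3 ligand at 10 ng/ml each. The 4 samples, 2 LMO2 chromatin immunoprecipitations and 2 matched inputs at 1%, all came from these Ebf1-deficient cells, so no group of another genotype, treatment or time was compared. Chromatin was crosslinked with disuccinimidyl glutarate at 1 mg/ml and then 1% formaldehyde, and was precipitated with a mixture of 3 anti-Lmo2 antibodies, 2 ug of each. The list gives 1 value per peak for both replicates together, so the spread between replicates and the depth of each sample are unknown here, and no difference was tested. It also holds no expression value, so neither the loss of Ebf1 nor the cell type could be checked against marker genes. Intervals are 95% Wilson intervals, and those on a difference of shares are Newcombe intervals. They cover the number of peaks counted only, and members of 1 cluster or sequence family are not independent.

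LMO2 is a small LIM-domain protein that does not itself bind DNA. It bridges DNA-binding partners, classically a bHLH pair such as TAL1 or LYL1 with an E protein and a GATA factor, and it has been found with ETS and RUNX factors in haematopoietic progenitors. It is required for haematopoietic stem cells and is silenced during normal T-cell development, where its persistence is linked to T-cell leukaemia. Intergenic elements far from a promoter can act as enhancers through chromatin looping, and the gene nearest on the linear map is then not always the gene they act on. The nearest gene is therefore given below as a position only.

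The sequences of 11 far intergenic peaks are shown first because the results turn on them. Each peak is 207 bases long and is given on the plus strand of GRCm38 (the assembly also called mm10). Capitals mark the 3 short words counted below, TGTGGT for RUNX, CTTCCT for ETS and CAGCTG for bHLH factors, on either strand. In the Ighv1 peaks capitals also mark the heptamer CACAGTG or its complement, part of the recombination signal at which V segments are cut and joined. The first 4 peaks are labelled by genes of progenitor or lymphoid function, Hes1 for the first, whose starts lay 40450 to 167616 bp away. The list itself named Cpn2 for the first and Gm14005 for the third. The first was the highest-scoring far intergenic peak, but these are not the 4 highest scores. The other 7 lay in antigen receptor loci, where near-copies of 1 sequence were listed at several places.
Hes1-Cpn2, chr16:30184978-30185184: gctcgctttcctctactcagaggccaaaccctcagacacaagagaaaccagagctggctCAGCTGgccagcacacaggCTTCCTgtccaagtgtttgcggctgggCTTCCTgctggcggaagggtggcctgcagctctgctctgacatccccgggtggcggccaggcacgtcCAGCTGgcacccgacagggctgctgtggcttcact
Runx3, chr4:135192892-135193098: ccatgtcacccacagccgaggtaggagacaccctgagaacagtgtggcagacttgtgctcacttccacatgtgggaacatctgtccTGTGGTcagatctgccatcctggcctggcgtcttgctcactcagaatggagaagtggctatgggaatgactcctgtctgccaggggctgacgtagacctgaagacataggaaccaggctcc
Bcl2l11, chr2:128295088-128295294: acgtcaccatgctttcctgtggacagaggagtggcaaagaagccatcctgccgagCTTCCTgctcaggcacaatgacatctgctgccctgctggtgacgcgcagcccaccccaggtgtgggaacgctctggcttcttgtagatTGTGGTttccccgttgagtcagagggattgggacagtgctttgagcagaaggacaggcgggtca
Bcl11a, chr11:24243035-24243241: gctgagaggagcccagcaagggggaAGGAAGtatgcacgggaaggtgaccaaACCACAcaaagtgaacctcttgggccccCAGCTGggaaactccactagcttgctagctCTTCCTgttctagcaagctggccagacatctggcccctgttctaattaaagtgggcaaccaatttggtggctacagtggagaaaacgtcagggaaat
Igkv10-95, chr6:68680816-68681022: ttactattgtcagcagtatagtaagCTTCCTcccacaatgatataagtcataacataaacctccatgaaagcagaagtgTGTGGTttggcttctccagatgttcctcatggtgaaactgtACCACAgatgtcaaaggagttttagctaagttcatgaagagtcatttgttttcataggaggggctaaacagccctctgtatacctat
Ighv1-59, chr12:115334988-115335194: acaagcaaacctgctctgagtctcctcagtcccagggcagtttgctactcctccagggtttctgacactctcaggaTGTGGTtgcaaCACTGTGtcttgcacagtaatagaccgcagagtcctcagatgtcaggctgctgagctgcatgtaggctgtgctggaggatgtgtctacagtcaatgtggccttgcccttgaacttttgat
Ighv1-58, chr12:115312011-115312217: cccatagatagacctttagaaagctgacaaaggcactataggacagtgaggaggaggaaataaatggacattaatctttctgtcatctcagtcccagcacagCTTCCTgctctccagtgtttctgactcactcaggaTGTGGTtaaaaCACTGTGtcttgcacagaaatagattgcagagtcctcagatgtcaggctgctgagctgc
Trav15d-1-dv6d-1, chr14:52864004-52864210: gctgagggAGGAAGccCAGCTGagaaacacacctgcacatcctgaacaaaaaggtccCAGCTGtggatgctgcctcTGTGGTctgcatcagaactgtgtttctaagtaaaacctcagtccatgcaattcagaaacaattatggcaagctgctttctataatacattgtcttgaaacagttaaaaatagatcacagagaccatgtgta
Trav15-1-dv6-1, chr14:53560310-53560516: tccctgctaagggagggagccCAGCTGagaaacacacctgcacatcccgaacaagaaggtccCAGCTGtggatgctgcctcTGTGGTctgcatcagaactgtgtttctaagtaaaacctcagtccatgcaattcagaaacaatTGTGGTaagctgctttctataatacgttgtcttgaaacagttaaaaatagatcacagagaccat
Trgc1, chr13:19219518-19219724: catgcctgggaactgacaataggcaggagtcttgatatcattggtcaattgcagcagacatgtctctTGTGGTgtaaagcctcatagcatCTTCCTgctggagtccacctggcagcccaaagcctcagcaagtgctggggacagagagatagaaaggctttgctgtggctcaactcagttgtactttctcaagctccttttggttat
Trgc3, chr13:19272666-19272872: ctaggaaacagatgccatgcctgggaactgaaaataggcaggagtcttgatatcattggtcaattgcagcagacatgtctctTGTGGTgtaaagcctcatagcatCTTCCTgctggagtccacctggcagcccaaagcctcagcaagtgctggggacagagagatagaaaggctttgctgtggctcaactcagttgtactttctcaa

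The far intergenic peaks began just past the limit and thinned out with distance. The distance to the TSS ran from 50582 to 695277 bp, with a median of 94543 bp and quartiles of 67622 and 161266 bp. Of the 199 peaks, 102 lay between 50 and 100 kb, 67 between 100 and 200 kb, and 30 beyond 200 kb. 17 peaks lay beyond 300 kb and 9 beyond 500 kb. They fell on both sides of the TSS, 101 upstream and 98 downstream (50.8% upstream, 43.9 to 57.6%). They were found on all 19 autosomes, with 5 to 18 on each and the most on chromosome 12. No far intergenic peak lay on the X or Y chromosome, where the whole list had 11 peaks.

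The limit itself passed through a continuous range. The 3 peaks just inside it lay 50582 bp upstream of Runx3 (score 26.1), 50637 bp upstream of Larp1 (score 20.7) and 50770 bp downstream of Optc (score 20.0). The 3 intergenic peaks just outside it lay 49441 bp upstream of 8430426J06Rik (score 23.3), 49146 bp upstream of Zc3h12a (score 16.7) and 47628 bp upstream of Atp2b4 (score 48.7).

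Where a peak counts as far depended on the annotation. In the deposited list the nearest gene was protein-coding for 126 peaks, a non-coding RNA for 47 and a pseudogene for 5, and 21 peaks had no gene symbol. Against RefSeq on GRCm38, 186 of the 199 peaks (93.5%) lay more than 50 kb from every curated transcript start. Against all RefSeq transcripts, predicted ones included, 70 peaks did (35.2%, 28.9 to 42.0%), and 69 peaks were overlapped by a RefSeq gene other than an antigen receptor locus. 8 peaks lay inside a RefSeq protein-coding gene model, 2 of them in Bach2 (a repressor used in B-lineage and progenitor cells), 2 in Zfp469, and 1 each in Gse1, Tmc1, Memo1 and the predicted gene LOC108168726.

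The peaks mostly sat in wide gaps between protein-coding genes. For 189 peaks both flanking protein-coding genes could be read from RefSeq, and the gap between them had a median of 304630 bp (quartiles 156421 and 757382 bp). For 39 of these peaks the gap exceeded 1000000 bp. Peaks that share a gap were each counted, in the median and quartiles too. Receptor segments did not count as protein-coding genes, so antigen receptor loci read as gaps. A median of 6 protein-coding genes started within 500 kb of a far intergenic peak, against 14 for the 413 intergenic peaks within 50 kb of a TSS, a difference that follows in part from how the far peaks were chosen. 20 far peaks had no such start within 500 kb, and 15 of those 20 lay in antigen receptor loci.

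The peak score, HOMER's normalised tag count of a peak, did not fall with distance. Scores of the far intergenic peaks ran from 15, the lowest score in the list, to 152.5, with a median of 21.1 and quartiles of 16.9 and 28.5. The median was 20.8 in the 102 peaks at 50 to 100 kb, 20.9 in the 67 at 100 to 200 kb and 21.95 in the 30 beyond 200 kb. Across the 199 peaks, which share their libraries, Spearman's rho between distance and score was 0.0223. The 9 peaks beyond 500 kb scored from 15 to 32.4. Without the 25 peaks in antigen receptor loci, described below, the median over the remaining 174 was again 21.1.

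**Figure D1:**
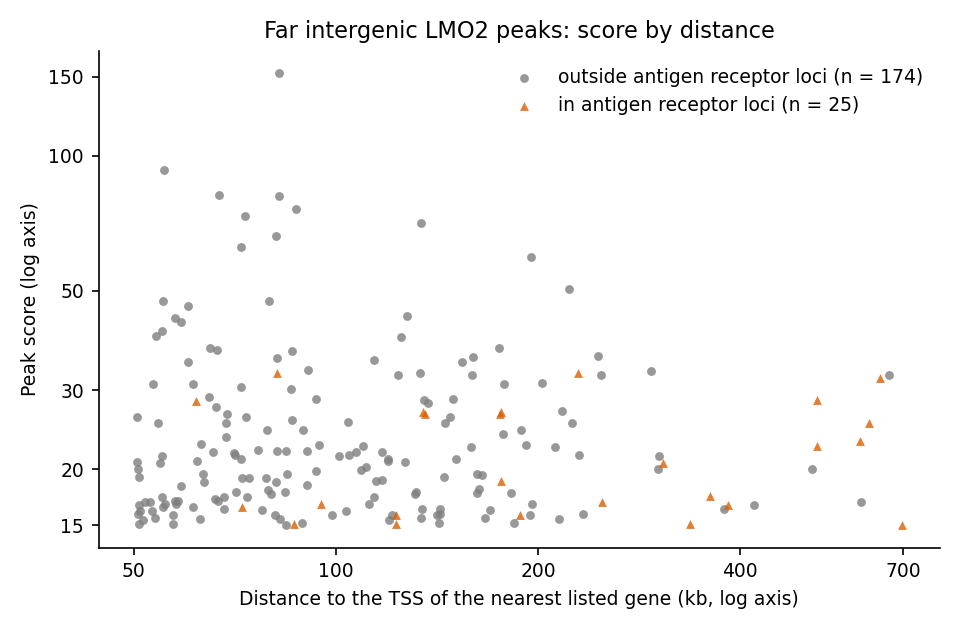
Each point is 1 of the 199 far intergenic peaks, with its distance to the TSS of the nearest gene in the list (kb, log axis) against its peak score (log axis); triangles are the 25 peaks in antigen receptor loci. Scores at and above 30 occur across the distance range, the highest peak (152.5) lies 82451 bp from its TSS, and 6 of the 9 peaks beyond 500 kb are triangles.

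Far intergenic peaks resembled the nearer intergenic and the intronic peaks in height. A score of at least 30 was reached by 46 of 199 far intergenic peaks (23.1%, 17.8 to 29.5%), by 95 of 413 intergenic peaks within 50 kb (23.0%, 19.2 to 27.3%) and by 115 of 506 intronic peaks (22.7%, 19.3 to 26.6%). The 170 peaks within 1 kb of a TSS were lower, with 16 at or above 30 (9.41%, 5.88 to 14.7%) and a median of 18.6. Far intergenic peaks, 12.6% of the list, made up 1 of the 20 highest scores, 7 of the 50 highest and 11 of the 100 highest.

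The focus ratio, the fraction of a peak's tags that lie on the side of its centre expected for their strand, was also lowest beside TSSs. Its median was 0.789 in far intergenic peaks (quartiles 0.752 and 0.827), 0.783 in nearer intergenic peaks, 0.793 in intronic peaks and 0.749 in peaks within 1 kb of a TSS. Among far intergenic peaks the highest value, 0.911, belonged to the peak between Tlk1 and Mettl8. The lowest, 0.618, belonged to a peak in a CpG island 50944 bp upstream of Zfp873. Score and focus ratio rose together only weakly (rho = 0.253 across the 199 peaks).

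**Figure D2:**
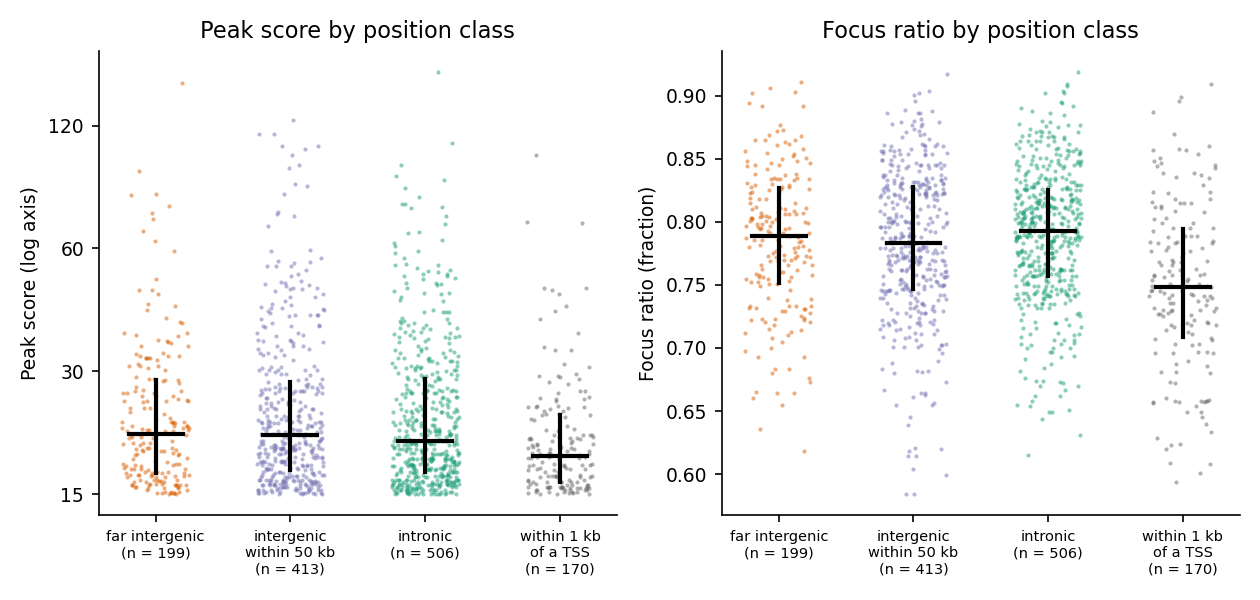
Peak score (left, log axis) and focus ratio (right, fraction) of every peak in 4 position classes, with the median as a horizontal bar and the quartiles as a vertical bar; the 199 far intergenic, 413 nearer intergenic and 506 intronic peaks overlap throughout, and the 170 peaks within 1 kb of a TSS sit lower in both measures. Repeat-annotated peaks are not plotted.

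The highest far intergenic peak had the second highest score of the whole list. It scored 152.5 with a focus ratio of 0.894 and lay between Hes1 and Cpn2, where the list named Cpn2, a carboxypeptidase subunit, at 82451 bp. The start of Hes1, a bHLH repressor and Notch target active in early lymphoid cells, was 119724 bp away on the other side. This peak held 2 ETS and 2 bHLH words and no RUNX word. A neighbour at 116049 bp from the Hes1 start scored 36.6 and held 1 RUNX and 2 ETS words.

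The next peaks by score lay beside genes of varied function. A peak 55564 bp upstream of Sfmbt2, a Polycomb-associated gene, scored 92.9, and a peak 67029 bp upstream of Aff3, a lymphoid nuclear factor, scored 81.5. A peak 82345 bp upstream of Slc25a33, a mitochondrial pyrimidine carrier, scored 81.3, and the start of Pik3cd, the PI3-kinase subunit of leukocytes, was 154983 bp from it. Peaks at Mettl8 and Pmepa1 scored 76.2 and 73.3. The peak of 70.8 was assigned to the non-coding gene Gm14005, and the nearest protein-coding start was that of Bcl2l11, which encodes the pro-apoptotic protein BIM, 167616 bp away. The last 3 of the 10 highest were at Gm5148 (66.2), Runx3 (62.5) and 8430436N08Rik (59.3), the last of these in the interval between Tox and Car8. Of these 10 peaks, 8 held an ETS word, 5 a RUNX word and 3 a bHLH word.

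Runx factors, which pair with ETS and bHLH factors in progenitor enhancers, had 5 far intergenic peaks nearest to them by protein-coding start. Runx3 had 4 of the 5. The peak upstream of it scored 26.1 and the 3 downstream scored 16.5, 62.5 and 27.5 in order along the chromosome. These 3 spanned 24622 bp, and the list assigned the third to Clic4. The list measured the 62.5 peak at 72350 bp from its Runx3 start, whereas the nearest curated RefSeq start of Runx3 was 40450 bp away. Runx1 had 1 peak, 202778 bp upstream, with a score of 31.2 and with 1 RUNX and 1 bHLH word.

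In the list of 23 LMO2-complex genes, 2 (Runx1 and Runx3) were named as nearest gene. Within 500 kb of a far intergenic peak there were 5, now with Gata3, Runx2 and Tcf4. The Gata3 start, of a factor needed for T-cell development, was 436287 bp from the Sfmbt2 peak of 92.9. The Tcf4 and Runx2 peaks scored 30.2 and 28.5, at 478615 and 483974 bp.

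Of 42 progenitor transcription factors, Bcl11a and Mycn were nearest genes. Bcl11a, a repressor needed for lymphoid progenitors, had peaks 119761 and 162443 bp downstream with scores of 21.1 and 19.5. The Mycn peak scored 15.4. By nearest protein-coding start the count was 7, adding Cebpb, Hmga2, Id2, Myc and Zeb2. Id2, an inhibitor of E proteins, had 3 peaks upstream: the 2 at 93367 and 94484 bp scored 46.3 and 30.9 and the third, at 335112 bp, scored 20.0. Cebpb, a myeloid factor, had peaks of 15.5 and 35.1. Hmga2, a chromatin protein of fetal stem cells, had a peak of 47.4 that lay 209834 bp upstream and held a GATA word but no RUNX, ETS or bHLH word. Zeb2 had a peak of 17.7, and 2 peaks of 20.0 and 16.9 lay 745376 and 838751 bp from Myc.

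In each of the lists of T- and B-lineage genes, 1 gene was a nearest gene. Of 41 T-lineage genes only Lef1, a Wnt-pathway factor of early T and B cells, was named (score 18.4, 90479 bp upstream). Of 21 B-lineage genes only Bach2 was named, with peaks of 26.1 and 22.4, and the nearest protein-coding start to a peak of 32.4 assigned to Mir181a-1 was that of Ptprc (CD45). Among 38 cytokine receptor and signalling genes, those named included Cxcr4 (a chemokine receptor, score 15.8). Kit, the SCF receptor, had peaks of 26.1 and 15.2 at 255494 and 260844 bp, in the interval before Kdr. Peaks of 15.8 and 16.3 lay 340446 and 361703 bp from Il7r, the IL-7 receptor. None of the 14 survival genes was named by the list, and 1, Bcl2l11, was found by protein-coding start.

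Over all 179 genes of these lists, 8 were nearest to a far intergenic peak, against 42 to any listed peak. By protein-coding start the counts were 16 and 59, and within 500 kb they were 29 and 125. The lists name genes of known interest in these cells, and these counts were not compared with those of other genes.

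The 178 peaks with a symbol were spread over 141 genes, 113 of which had 1 peak. 22 genes had 2 peaks, 5 had 3 and 1 had 6. The 6 peaks of Mir6388 and the 3 each of Rprl1 and Stard3nl all lay in antigen receptor loci, described below. The other genes with 3 included Gm17746 (beside Id2) and Runx3.

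Some far intergenic peaks lay close to one another, and most stood alone. 47 of the 199 (23.6%, 18.3 to 30.0%) lay within 25 kb of another far intergenic peak, 28 within 10 kb and 80 within 100 kb. Linking peaks within 25 kb gave 5 clusters of 3, 16 of 2 and 152 lone peaks. The share within 25 kb of a peak of the same class was 25.9% (21.9 to 30.3%) in nearer intergenic peaks, 17.8% (14.7 to 21.4%) in intronic peaks and 21.2% (15.7 to 27.9%) in peaks within 1 kb of a TSS, classes of other sizes. Outside antigen receptor loci the far intergenic share was 32 of 174 (18.4%, 13.3 to 24.8%), and inside them it was 15 of 25.

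Of the 5 clusters of 3 peaks, 3 were in the Tcra and Igh loci, and the cluster at Runx3 held no repeated sequence. Both Tcra clusters had the same scores (15.8, 26.8 and 26.5) and matching peaks of identical sequence, so they are not separate measurements. Pairs outside receptor loci included the Hes1-Cpn2 pair (36.6 and 152.5), the Id2 pair (46.3 and 30.9) and the Kit-Kdr pair (26.1 and 15.2). Gm5148 had a pair of 17.6 and 66.2. Between Irf2, an interferon-response regulator, and Enpp6 there were 2 pairs, of 20.2 and 16.7 and of 36.9 and 21.8. Pairs of low peaks lay between Fos and Jdp2, both AP-1 family genes (16.7 and 16.1), and between Ccnd2, a cyclin of lymphocyte proliferation, and Parp11 (17.3 and 15.6).

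**Figure D3:**
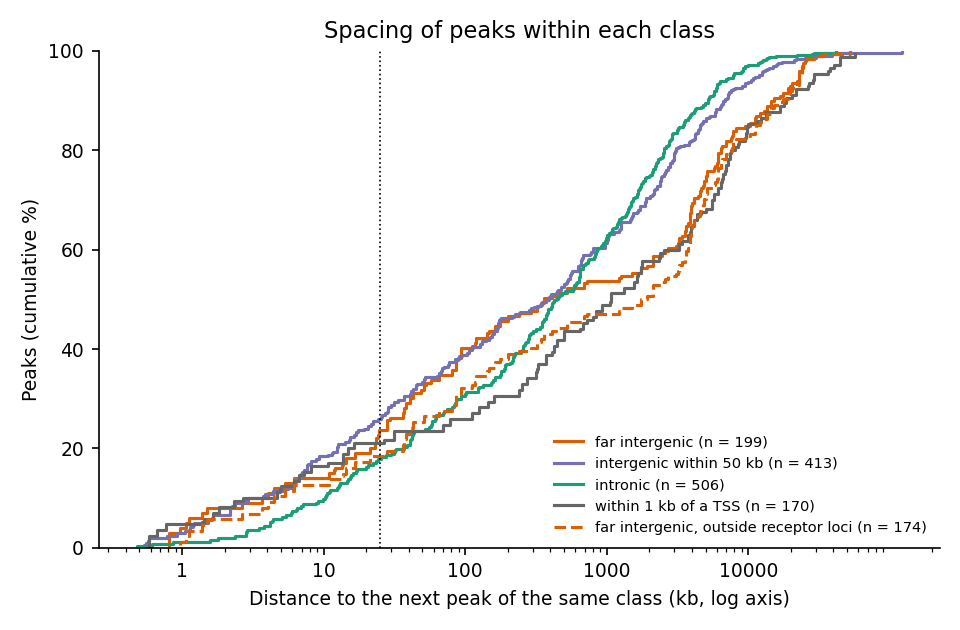
Cumulative percentage of peaks by the distance to the next peak of the same class (kb, log axis) in 4 position classes, with the 25 kb link as a dotted line; the dashed line leaves out the 25 far intergenic peaks in antigen receptor loci. At 25 kb the far intergenic line stands at 23.6% and the dashed line at 18.4%, between the intronic (17.8%) and the nearer intergenic (25.9%) peaks.

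Antigen receptor loci held 25 of the 199 far intergenic peaks (12.6%, 8.66 to 17.9%). Of these 25, 22 belonged to 6 families of related sequence, so this share counts near-copies as separate peaks. In these loci V, D and J segments are joined by recombination to make immunoglobulin and T-cell receptor genes. Of the 2937977 windows of 207 bp in far intergenic sequence that were mostly outside soft-masked repeats, 0.708% lay in these loci, and of the other listed peaks 8 of 1385 did (0.578%, 0.293 to 1.14%). The far peaks were chosen by their distance to a listed TSS. The part of this selection in the contrast with the other listed peaks was not tested. Of all listed peaks in each locus, 8 of 9 in Igh, 11 of 12 in Tcra and 3 of 4 in Tcrg were far intergenic. The counts were 3 of 5 in Igk and 0 of 3 in Tcrb. These loci were singled out after the peak positions were seen. The peaks were 11 in Tcra, 8 in Igh, 3 in Igk and 3 in Tcrg, with none in Igl, Tcrb or Tcrd. The list named no receptor segment for them: 10, all in Tcra, had no gene symbol, 11 were assigned to Adam6b, Mir6388 or Rprl1, other genes that lie inside the Igh or Igk locus, and 4 to Dad1 or Stard3nl outside. Of the 9 peaks beyond 500 kb, 6 were in these loci. 13 of the 25 overlapped a V segment, and the other Tcra peaks lay at most 85 bp from one. Their scores ran from 15 to 32.7 with a median of 20.6, and 3 of 25 reached 30.

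**Figure D4:**
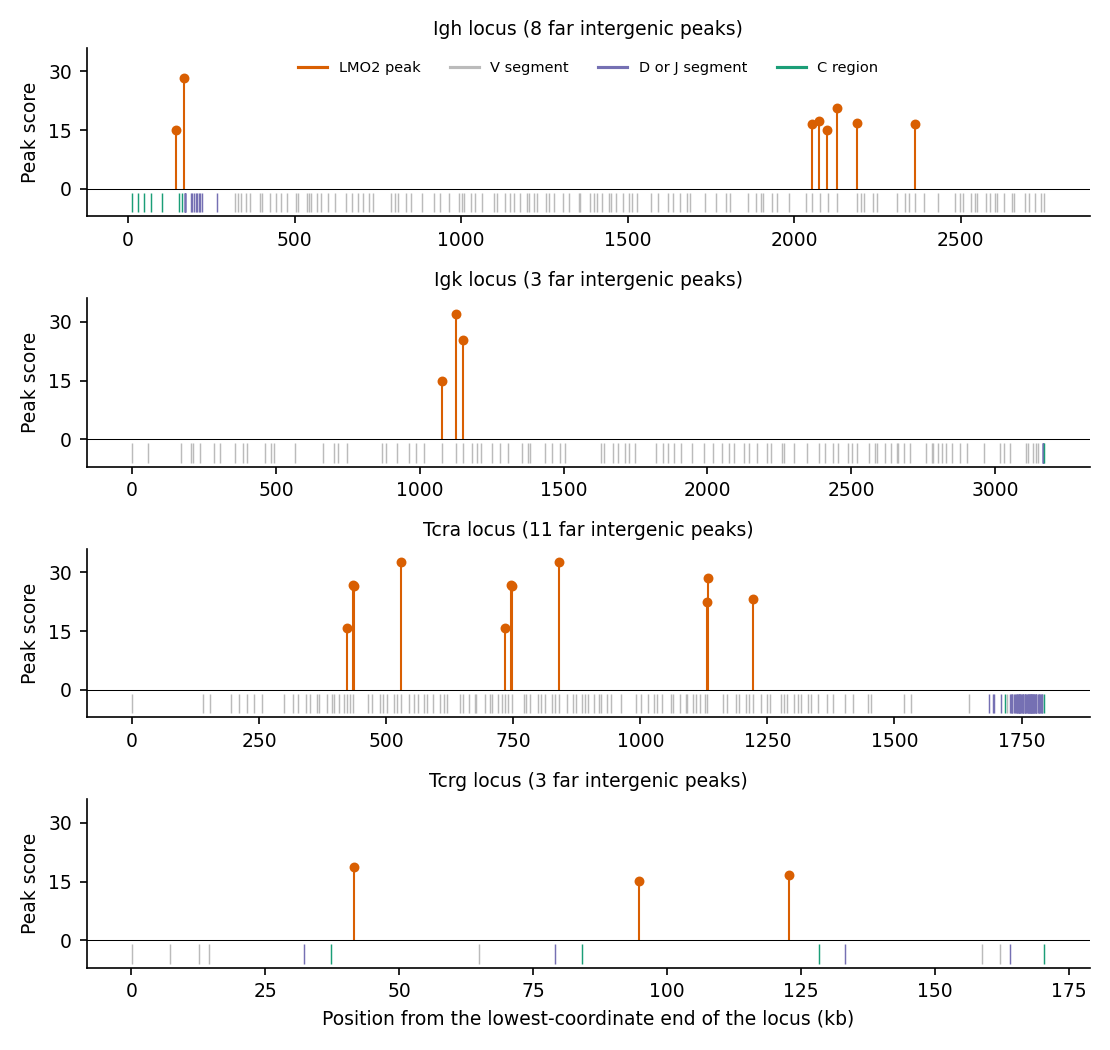
Far intergenic peaks in 4 antigen receptor loci, with the position from the lowest-coordinate end of the locus (kb) against peak score; ticks below the line mark V segments (grey), D or J segments (purple) and C regions (green) of RefSeq. The Igk and Tcra peaks lie among V segments, 2 Igh peaks lie at the end with the C regions, and the 3 Tcrg peaks are spread between 41.6 and 122.7 kb.

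The Tcra peaks were copies of few sequences. 6 of the 11 lay beside members of the Trav15 family and belonged to 1 sequence family, with scores from 23.1 to 32.7. The other 5 formed a family of 3, also at Trav15 segments (22.5 to 26.8), and a pair at Trav13 segments. The Trav15d-1-dv6d-1 peak printed above and the one at Trav15n-1 were identical over all 207 bases, and both scored 26.5. Identical peaks at the same 2 segments scored 26.8 and 26.8, those at Trav13d-1 and Trav13n-1 15.8 and 15.8, and those at Trav15d-2-dv6d-2 and Trav15n-2 32.7 and 32.7. A read from such a sequence fits both places equally, so equal scores there do not give 2 separate measurements. The related Trav15-1-dv6-1 peak above, which differs in sequence, scored 28.5 and held 2 RUNX and 2 bHLH words.

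The Igh peaks fell in separate regions. A peak 871 bp from Ighj4, between the J segments and the C regions, scored 28.4, the highest in the locus, and a peak 4428 bp from Ighd scored 15.1. The other 6 lay in the Ighv1 family, at 15.1 to 20.6. Of these, 5 overlapped a V segment and were 88.0 to 98.0% identical to each other over 121 to 199 aligned bases. In all 5 a RUNX word was present. In 4 of them (Ighv1-58, Ighv1-59, Ighv1-62-2 and Ighv1-69) the heptamer CACAGTG was present in the orientation of the V segment, and the RUNX word started 12 bases after the first base of the heptamer, as in the 2 sequences above. The heptamer, looked for after these peaks were seen, was in 4 of the 25 peaks in receptor loci and, on either strand, in 22 of the 174 far intergenic peaks outside them. It was in 0 of the 8 Igk and Tcra peaks that overlapped a V segment. That count cannot show the signal to be absent there. The 5 in Tcra overlapped only the upstream end of their segment, away from the end that is joined. In the printed Igkv10-95 peak the bases just after the segment read cacaatg, which the exact word searched does not match.

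The Igk peaks overlapped Igkv10-96, Igkv10-95 and Igkv10-94, with scores of 15, 32.0 and 25.3. They were 93.7 to 98.7% identical over 158 to 190 aligned bases, but the RUNX words differed, with 0, 2 and 1 in that order. The 3 Tcrg peaks lay 2900, 9269 and 4183 bp from the C regions Trgc1, Trgc3 and Trgc2, with scores of 18.8, 15.1 and 16.7. They were 98.9 to 99.5% identical over 187 to 197 aligned bases. Each held 1 RUNX and 1 ETS word, at the same spacing in the 2 printed.

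Some far intergenic peaks lay in repeated sequence. In 25 of 199 (12.6%) at least 50% of the 50-base words occurred more than once in the genome, against 6.05% (4.13 to 8.78%) of nearer intergenic and 3.36% (2.11 to 5.31%) of intronic peaks. The share was 11.9% (10.4 to 13.6%) over all listed peaks and 25.3% (19.4 to 32.3%) in peaks within 1 kb of a TSS. 18 of the 25 far peaks lay in receptor loci, and outside the loci the share was 7 of 174 (4.02%, 1.96 to 8.07%). The other 7 included 5 peaks in a stretch of chromosome 5 with the Speer1 gene and related genes, which scored 17.0 to 22.1. Of those, 4 were 97.9 to 100% identical over 187 to 207 aligned bases, scored 21.5 to 22.1 and held none of the 3 words. In all, 26 peaks fell into 7 families of related sequence, and counting each family once left 180 separate sequences.

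RUNX and ETS words were the most frequent of those searched. TGTGGT was present in 110 of 199 peaks (55.3%, 48.3 to 62.0%), CTTCCT in 100 (50.3%, 43.4 to 57.1%) and CAGCTG in 69 (34.7%, 28.4 to 41.5%), each read on both strands. In far intergenic genome windows of the same length outside soft-masked sequence the shares were 13.4%, 21.0% and 6.88%. The paper reported Runx, ETS and bHLH motifs as enriched in this same list of peaks. A higher share of these words among its members is therefore not an independent result. The GATA word (AGATAA or TGATAA) was in 30 peaks (15.1%, 10.8 to 20.7%), below its 29.1% of windows. A composite of CTG, 7 to 9 bases and GATA, modelled on the classical site of an LMO2 complex and can overlap both other words, was in 14 peaks (7.04%, 4.24 to 11.5%) against 7.23% of windows. The peaks were richer in G and C than these windows (median 50.7% against a mean of 39.2%), and the part of base composition in the motif shares was not tested.

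The far intergenic peaks and the nearer intergenic peaks held these words at similar rates. The far share minus the nearer intergenic share was -1.38 percentage points for RUNX (-9.76 to 6.91), -3.74 for ETS (-12.1 to 4.65), -0.436 for bHLH (-8.28 to 7.73) and -2.84 for GATA (-8.71 to 3.73), so differences of several points in either direction were not detectable with these numbers of peaks. Against intronic peaks the ETS difference was -8.64 points (-16.7 to -0.512), while the intervals for the other words covered both signs. No allowance was made for the number of intervals read. Against peaks within 1 kb of a TSS the far peaks held RUNX words more often by 27.6 points (17.7 to 36.8) and ETS words by 16.7 points (6.62 to 26.3). The peaks near a TSS were richer in G and C (median 61.8% against 50.7%), and the part of base composition in these differences was not tested.

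The words were placed and combined in varied ways. The median distance from the centre to the nearest word was 28.0 bp for RUNX, 34.0 bp for ETS and 41.5 bp for bHLH, and the central 100 bp, which are 48.3% of a peak, held a word in 80 of the 110 peaks with RUNX (72.7%, 63.7 to 80.2%), 63 of the 100 with ETS (63.0%, 53.2 to 71.8%) and 38 of the 69 with bHLH (55.1%, 43.4 to 66.2%). All 3 words occurred in 18 peaks, 2 in 72, 1 in 81 and none in 28 (14.1%). In the other listed peaks, 15.02% held none. The median score was 20.3 in peaks with RUNX and 21.7 without, and 21.4 with ETS and 20.7 without. It was higher with bHLH, at 23.6 (quartiles 17.8 and 30.9) against 20.4 without (16.6 and 26.1), with overlapping quartile ranges. In the 14 peaks with the composite it was 24.85 (18.3 and 27.4), against 20.9 without (16.7 and 28.5). In receptor loci RUNX words were in 20 of 25 peaks (80.0%, 60.9 to 91.1%), several of them copies of one another, and outside them in 90 of 174 (51.7%, 44.3 to 59.0%).

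**Figure D5:**
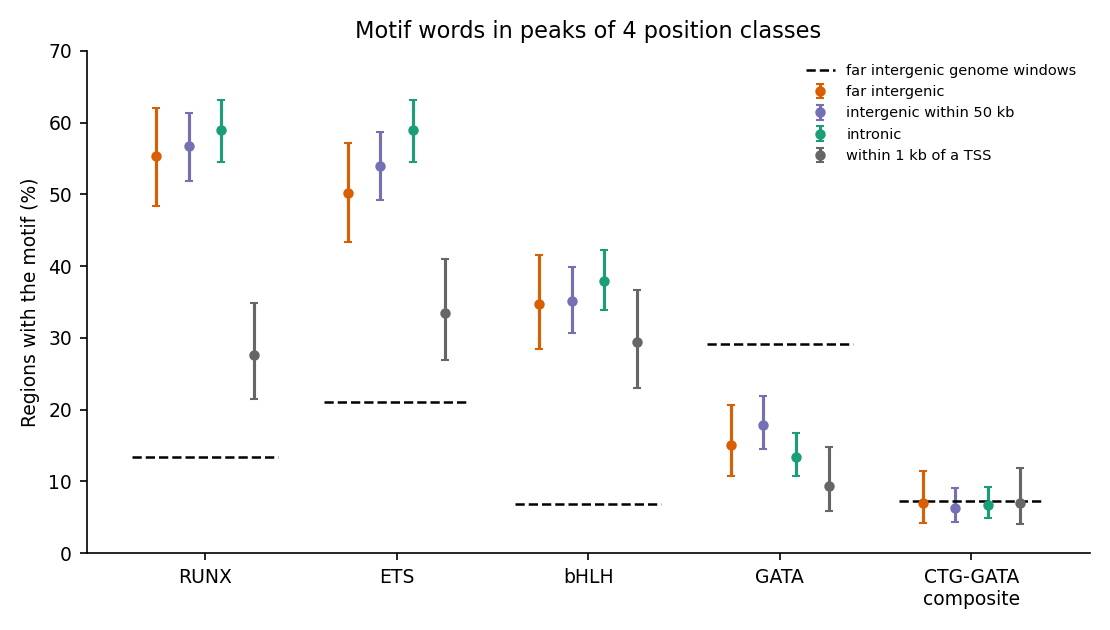
Percentage of regions that hold each motif word in 4 position classes, with 95% Wilson intervals, and in far intergenic genome windows outside soft-masked sequence (dashed). Far intergenic peaks stand above the dashed line for RUNX (55.3%), ETS (50.3%) and bHLH (34.7%), below it for GATA (15.1%) and at it for the composite (7.04%). The paper had already reported the RUNX, ETS and bHLH motifs as enriched in this list of peaks.

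CpG islands were rare among the far intergenic peaks. 5 peaks were annotated as CpG islands and held 13 to 23 CpG dinucleotides each, against a median of 2.5 in the others. One of them, scoring 27.5, was the third peak of the Runx3 cluster, and another, scoring 37.2, lay 65005 bp upstream of Cr2, a complement receptor of B cells. The others lay near Wnt7b, 6820431F20Rik and Zfp873, with scores of 16.9, 37.3 and 16.6.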

How the data were processed

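LMO2 ChIP-seq of pro-B(+) cells (2 immunoprecipitations and 2 inputs) was analysed from 1 deposited list of 1585 peaks. Per the labels and the study's methods, the authors aligned reads to mm10 with Bowtie 1.1.1, keeping reads with a limited number of equally good matches, called peaks against matched inputs with HOMER, kept peaks reproducible between the replicates, and annotated them. The deposited peak score is HOMER's normalised tag count, at least 15 in this list; the deposited focus ratio is a fraction; distances are in bp. The labels and the methods differ on the sequencer and read length. Depth per sample is unknown from the list, and replicates are pooled in it.

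The 199 members were selected by annotation, distance and the absence of a repeat name. Sequences were read from GRCm38.p6 and genes from its RefSeq annotation. Motif words were counted on both strands in each 207 bp peak and in every 207 bp window tiled over the chromosomes, after a check on simulated sequences with planted words. Windows counted as far intergenic when outside curated RefSeq transcripts and more than 50 kb from their starts. 1584 peaks lay on assembled chromosomes and were searched. Sequence families joined peaks of at least 85% identity over at least 100 aligned bases. Medians, quartiles and shares are descriptions, and no test was run because no value is replicated. Python 3.11.15, pandas 2.3.3, SciPy 1.17.1, numba 0.67.0 and Biopython 1.88 were used.

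Genes were named when nearest to the 10 highest, 5 farthest or 3 nearest-to-limit peaks, in the largest clusters, with most peaks, or in 6 gene lists of 179 genes. Antigen receptor segments, the Speer1 region, CpG island peaks, genes overlapping a peak, and genes flanking peaks or pairs were named after their values were seen. The members and lists were chosen with earlier results of these data known. Alternatives covered the distance limit, repeat peaks, annotation, score minimum, repeated sequence, link distance and motif window, and leaving out receptor loci or identical sequences was added after seeing the data. 1 gene that the naming rule covers is not reported here.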

Additional observations from a re-analysis of the deposited data

How the results depend on the processing

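42 of 62 alternative values stayed within 1.5 times the reported count or inside the interval of the reported share or median. The number of far intergenic peaks was 97 above 100 kb, 316 above 25 kb, 72 by distance to any RefSeq transcript start and 46 at a minimum score of 30. The median distance was 162443 bp above 100 kb and 63548.5 bp above 25 kb, and the median focus ratio was 0.805 at a minimum score of 30. The share of peaks with a neighbour was 14.1% at 10 kb, 31.7% at 50 kb, 40.2% at 100 kb, 32.2% with any listed peak as neighbour and 8.70% at a minimum score of 30. In the central 100 bp the share with RUNX was 40.2%, with ETS 31.7%, with bHLH 19.1%, with GATA 9.05% and with the composite 2.51%, since a shorter window holds fewer words. The number of listed genes was 16 by nearest protein-coding start, 29 within 500 kb and 3 at a minimum score of 30. The 11 values from leaving out receptor loci or counting identical sequences once, both chosen after seeing the data, did not pass these bounds. No paired analysis was possible because both replicates share 1 value per peak, and no replicate could be left out. The unknown depth limits statements on peaks not listed.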
